A study of Mus musculus with 3 samples.

Results

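The histone acetylation set comprised 36 mouse genes that encode writers, erasers and readers of lysine acetylation and the scaffolds of their corepressor complexes. Members were chosen by symbol, and all 36 symbols were found among the 55536 genes of the deposited tables, of which 22028 were protein-coding. The genes were measured in total RNA-seq of ribosomal-RNA-depleted chromatin RNA from primary bone-marrow-derived macrophages of C57BL/6J mice. All 3 libraries belonged to 1 condition. The cells had received 100 ng/ml Lipid A for 12 h, a washout of 12 h and then 100 ng/ml Lipid A again for 10 min. Lipid A, the membrane anchor of lipopolysaccharide, is sensed by Toll-like receptor 4. Age and sex of the mice were not collected, the libraries came from separate biosamples listed under 1 donor entry, and RNA input was 1 µg, 250 ng and 500 ng in replicates 1, 2 and 3. No untreated group was analysed here, so no value below is an effect of Lipid A.

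Lysine acetyltransferases place acetyl groups on histone tails, histone deacetylases remove them, and bromodomain proteins bind them. The deacetylases fall into enzymes that need zinc and sirtuins that consume NAD+, and several of them act only inside complexes built on scaffold proteins such as NCOR1 and SIN3. In macrophages this machinery is known for setting how strongly inflammatory genes respond to a first and to a repeated encounter with lipopolysaccharide. RNA attached to chromatin contains transcripts still being made and not yet spliced, so a level here is the amount of RNA in that fraction and not the amount of messenger RNA or protein in the cell.

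Total expected counts on genes were 13538605, 19949204 and 18224466 in replicates 1, 2 and 3. All 9 macrophage markers examined were detected, with a summed level of 1560 to 2000 CPM (counts scaled to equal library totals). Of 31 markers of 7 other groups of cell types, 1 was detected (Kdr, 5.72 ± 4.04 TPM, SD, n = 3) and 13 were at 0 in every library. Protein-coding genes together held 299600, 309000 and 273300 TPM in replicates 1, 2 and 3. TPM is a level scaled for transcript length, with the same total in every library. Other gene classes and entries for tRNA, spike-ins and phiX held the remainder of the fixed total.

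Of the 36 members, 35 were detected, defined as a TPM of at least 1 in all 3 libraries, against 45.6% of protein-coding genes. The median level of the set on the log2(TPM + 0.1) scale was 4.30 ± 0.0984, against 3.60 ± 0.107 for detected protein-coding genes (SD over 3 libraries). Among detected protein-coding genes, 13 members lay above the upper quartile and 10 below the median. The range was wide, with a mean of 211 TPM for Ncor1 and 0.877 TPM for Hdac11. By role, readers had the highest median, 5.54 ± 0.146, and zinc-dependent erasers the lowest, 3.40 ± 0.131. Writers at 4.46 ± 0.123, sirtuins at 4.60 ± 0.314 and corepressor scaffolds at 4.64 ± 0.0551 lay between them. In gene-table TPM these differed from each other by less than the spread of the sirtuins. In CPM without length scaling they stood further apart, at 5.73, 4.90 and 6.19 in the same order. Readers were highest and zinc-dependent erasers lowest in each of 9 settings of the calculation.

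**Figure D1:**
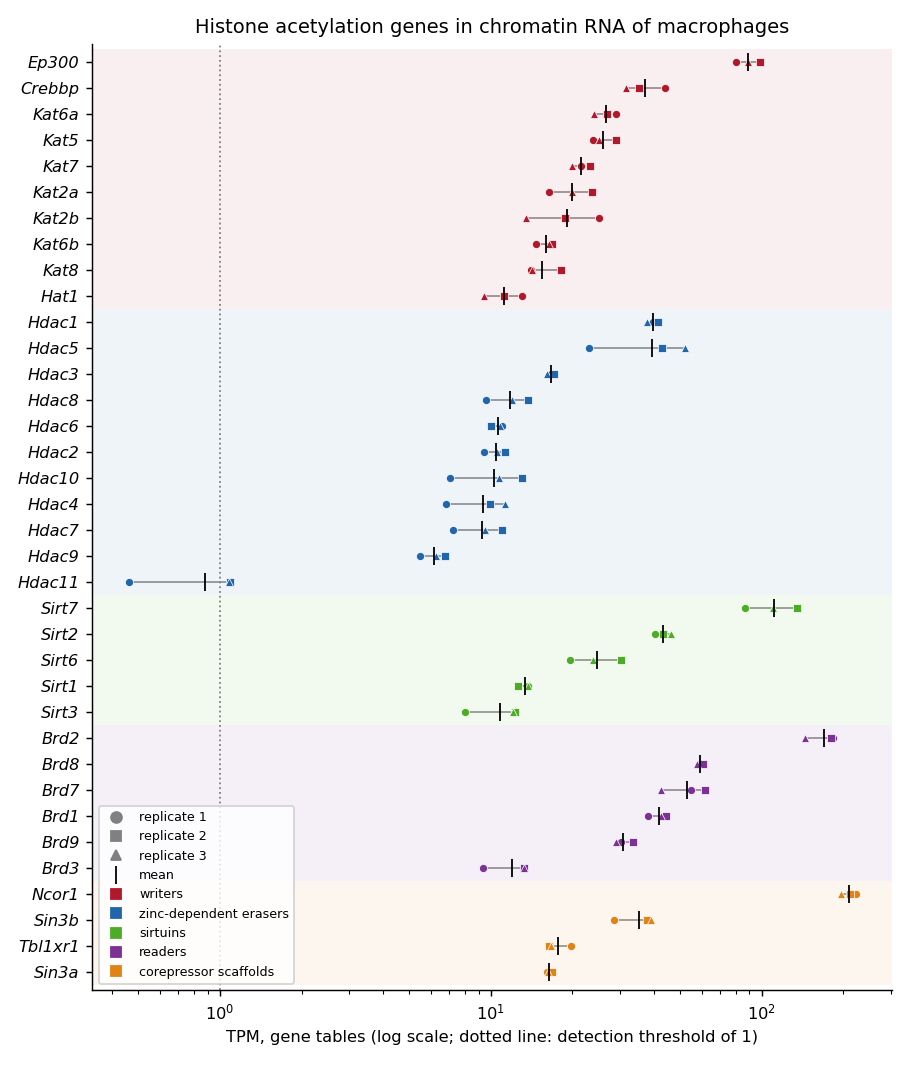
TPM of each of the 36 genes in each library (symbols, log scale), with the mean as a vertical bar, grouped by role. Ncor1 at 211 TPM and Brd2 at 169 TPM sit far to the right, Hdac11 straddles the detection threshold of 1, and Hdac5 has a wide range from 23.0 to 52.1 TPM.

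Promoter sequences are shown for the 3 highest and 3 lowest members with an entry, to set the bases around the start of the most and least abundant genes beside each other. Each runs 5′ to 3′ over 300 bases from the RefSeq table for build GRCm38.p6, 250 before the start site and 50 after it. The entry taken was the one nearest the annotated 5′ end of the gene. Capitals mark matches, on either strand, to the GC box GGGCGG, the ETS core CCGGAAG, the CCAAT box CCAAT, the TATA box TATAAA and the kappaB motif, and no match shown overlaps another. The other motifs searched were CACGTG, TGACGTCA and GAAANNGAA.
Ncor1 (chr11:62457283-62457582, minus strand): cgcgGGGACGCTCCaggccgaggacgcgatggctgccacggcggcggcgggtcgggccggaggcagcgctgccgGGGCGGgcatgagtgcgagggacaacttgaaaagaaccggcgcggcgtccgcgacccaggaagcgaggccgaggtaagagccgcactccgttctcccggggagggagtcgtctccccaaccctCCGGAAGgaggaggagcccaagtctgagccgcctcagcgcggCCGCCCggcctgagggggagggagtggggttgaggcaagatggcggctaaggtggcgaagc
Brd2 (chr17:34122558-34122857, minus strand): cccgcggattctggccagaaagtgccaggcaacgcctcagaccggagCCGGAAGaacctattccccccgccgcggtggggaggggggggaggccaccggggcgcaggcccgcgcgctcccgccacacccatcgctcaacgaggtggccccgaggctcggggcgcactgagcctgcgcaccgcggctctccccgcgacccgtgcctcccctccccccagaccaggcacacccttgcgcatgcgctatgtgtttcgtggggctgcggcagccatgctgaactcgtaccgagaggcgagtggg
Sirt7 (chr11:120624965-120625264, minus strand): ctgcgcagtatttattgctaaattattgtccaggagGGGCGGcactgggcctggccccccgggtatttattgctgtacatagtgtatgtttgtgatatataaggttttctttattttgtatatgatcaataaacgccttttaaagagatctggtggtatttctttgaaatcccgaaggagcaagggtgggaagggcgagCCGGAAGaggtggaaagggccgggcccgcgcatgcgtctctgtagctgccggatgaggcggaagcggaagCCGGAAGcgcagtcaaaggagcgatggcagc
Hdac7 (chr15:97844453-97844752, minus strand): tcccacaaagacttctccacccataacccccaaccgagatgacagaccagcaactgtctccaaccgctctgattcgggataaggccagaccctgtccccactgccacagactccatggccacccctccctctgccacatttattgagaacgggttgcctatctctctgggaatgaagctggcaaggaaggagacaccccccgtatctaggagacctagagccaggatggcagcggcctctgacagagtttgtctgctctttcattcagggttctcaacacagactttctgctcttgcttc
Hdac9 (chr12:34917046-34917345, minus strand): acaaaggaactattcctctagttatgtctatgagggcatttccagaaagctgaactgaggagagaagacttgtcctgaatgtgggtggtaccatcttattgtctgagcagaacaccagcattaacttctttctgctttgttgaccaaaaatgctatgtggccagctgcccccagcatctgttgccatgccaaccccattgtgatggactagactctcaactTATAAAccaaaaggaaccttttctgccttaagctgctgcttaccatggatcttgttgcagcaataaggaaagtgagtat
Hdac11 (chr6:91156565-91156864, plus strand): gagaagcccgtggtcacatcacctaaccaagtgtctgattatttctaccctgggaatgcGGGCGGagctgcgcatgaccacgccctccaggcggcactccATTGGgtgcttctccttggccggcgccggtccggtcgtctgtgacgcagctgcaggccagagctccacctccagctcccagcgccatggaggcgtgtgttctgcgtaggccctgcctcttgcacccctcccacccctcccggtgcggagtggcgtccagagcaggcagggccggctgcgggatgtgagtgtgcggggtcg

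The Ncor1 and Brd2 promoters held 36 and 32 CpG dinucleotides in 300 bases, that of Sirt7 held 17, and those of Hdac7, Hdac9 and Hdac11 held 6, 0 and 22. The Hdac9 window, from the longest gene of the set, had a TATA box 29 bases before the start site, and the Hdac7 window had no match to any of the 8 motifs. Hdac11, the lowest member, held a GC box as Ncor1 and Sirt7 did, so the presence of that motif did not separate these high and low members. Across the 31 members with an entry, 28 had more CpG dinucleotides than the median of all promoters. The median was 22 for members against 7 for the 32851 promoters of the table. Those promoters were not limited to genes detected here, whereas nearly all members were detected. Shares among promoters of detected genes were not computed. The GC box was in 21 member promoters (67.7%), against 35.7% of all promoters. The ETS core was in 10 member promoters (32.3%), against 8.86% of all. These counts depended on the entry taken. With the entry nearest the most abundant coding transcript, the GC box was in 25 of 31 (80.6%) and the ETS core in 5 (16.1%). By that rule the Ncor1 window held 2 CpG dinucleotides and no match to the 8 motifs, and the Hdac7 window held 31 and a GC box. Brd2 then held 24 and a GC box but no ETS core, and Hdac9 held 3 and a GAAANNGAA match but no TATA box. The entries of Sirt7 and Hdac11 were the same by both rules. With the rule used for the windows shown, the entries of Sirt1, Kat6b, Hdac4, Brd3 and Ncor1 lay 42669, 18336, 15358, 32264 and 1209 bases from the annotated 5′ end of the gene. The CCAAT box was in 38.7% of member promoters and 37.4% of all, the TATA box in 9.68% and 13.6%, the interferon response core GAAANNGAA in 6.45% and 8.56%, and the kappaB motif in 16.1% and 8.46%. The E box CACGTG was in 12.9% of member promoters and 7.15% of all, and the cAMP response element TGACGTCA in 0 of 31 and 1.79% of all. Members without an entry were Brd8, Hdac1, Kat6a, Hdac3 and Hdac10.

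Among the writers, Ep300 had the highest level. It encodes p300, a broad coactivator that acetylates histones at enhancers and promoters, and it read 80.6, 98.3 and 88.6 TPM in replicates 1, 2 and 3. Its close relative Crebbp read 44.0, 35.3 and 31.6 TPM, below Ep300 in every library. The ratio of Ep300 to Crebbp was 1.28 ± 0.35 on the log2 scale (SD, n = 3), or 2.42-fold, 1.48 without replicate 1 and 0.55 in CPM without length scaling. Kat2a, the catalytic subunit of SAGA and ATAC complexes, read 16.3, 23.6 and 19.9 TPM, and its alternative Kat2b read 24.96, 18.7 and 13.5 TPM. The order of this pair differed between libraries, with Kat2b higher in replicate 1 and Kat2a higher in replicates 2 and 3. The log2 ratio of Kat2a to Kat2b was 0.09 ± 0.617, and −1.29 ± 0.467 in the read-based tables, where Kat2b was higher in all 3 libraries.

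The MYST writers, Kat5 to Kat8, had means from 15.4 to 26.6 TPM in the gene tables. In the read-based tables Kat7 was the highest of them at 42.6 TPM, followed by Kat6a at 39.6 TPM, and Kat8 was the lowest at 20.9 TPM. Kat6a, which acetylates histones as part of the MOZ complex, read 29.0, 26.9 and 24.0 TPM. Its relative Kat6b read 14.6, 16.9 and 16.4 TPM, and the log2 ratio of Kat6a to Kat6b was 0.73 ± 0.221, with Kat6a higher in 3 of 3 libraries, and 1.65 in CPM without length scaling. Kat5, the catalytic subunit of TIP60, averaged 25.96 ± 2.72 TPM, and Kat7, that of the HBO1 complex, 21.5 ± 1.64 TPM. Kat8, the enzyme of the MSL and NSL complexes, averaged 15.4 ± 2.32 TPM. The lowest writer was Hat1, which acetylates newly made histones before they enter chromatin, with 13.0, 11.2 and 9.42 TPM.

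The zinc-dependent erasers held both the lowest member and some of the widest spreads. Hdac1, a catalytic subunit of the NuRD, SIN3 and CoREST complexes, read 39.7, 41.3 and 37.6 TPM. Hdac2, which fills the same places in those complexes, read 9.44, 11.2 and 10.6 TPM. The groups of values did not overlap, and Hdac1 exceeded Hdac2 by 1.92 ± 0.126 on the log2 scale, or 3.77-fold. This log2 ratio was 2.30 in the read-based tables, or 4.91-fold, and 1.40 in CPM without length scaling. Hdac3, the enzyme of the NCoR complex, averaged 16.7 ± 0.496 TPM, and Hdac8, a class I enzyme that also deacetylates cohesin, 11.8 ± 2.08 TPM.

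The class IIa enzymes shuttle between nucleus and cytoplasm and have little deacetylase activity of their own. Hdac5 read 23.0, 42.7 and 52.1 TPM and Hdac4 read 6.80, 9.93 and 11.3 TPM, both lowest in replicate 1. The log2 ratio of Hdac4 to Hdac5 was −2.01 ± 0.237, so Hdac5 was 4.03-fold higher, with the same direction in every library. The log2 ratio was −1.33 in the read-based tables, or 2.51-fold, and −1.24 in CPM without length scaling. Hdac7 read 7.26, 11.0 and 9.49 TPM and Hdac9 read 5.49, 6.76 and 6.29 TPM. Their log2 ratio was 0.56 ± 0.151 in the gene tables and 0.11 ± 0.181 in those made from reads, where its sign differed between libraries. Of the class IIb enzymes, Hdac6, a tubulin deacetylase, averaged 10.6 ± 0.499 TPM and Hdac10, a polyamine deacetylase, 10.3 ± 3.04 TPM. Which of them was higher differed between libraries, at a log2 ratio of 0.09 ± 0.508. Hdac11, the only class IV enzyme, read 0.46, 1.09 and 1.08 TPM on 8, 21 and 16 expected counts. In the gene tables it missed the threshold in replicate 1 alone, and without that library all 36 members were detected. In the read-based tables it read 1.52, 1.01 and 1.17 TPM, so all 36 were detected there with every library kept.

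Among the sirtuins, Sirt7 stood highest. It encodes a nucleolar deacetylase and read 86.8, 135 and 109.7 TPM, below Ncor1 and Brd2 alone in the gene tables. In the read-based tables its mean was 86.9 TPM, below the 104 TPM of Ep300 as well. The chromatin enzyme Sirt6 read 19.5, 30.2 and 23.9 TPM, and both genes were lowest in replicate 1 and highest in replicate 2. The log2 ratio of Sirt6 to Sirt7 was −2.17 ± 0.0246, the smallest SD of the 12 ratios taken in the gene tables, with Sirt7 4.49-fold higher. It was −1.74 in the read-based tables and −2.89 in CPM without length scaling. Sirt2, mainly a cytoplasmic tubulin deacetylase, read 40.5, 43.0 and 46.3 TPM. The mitochondrial enzyme Sirt3 read 8.05, 12.3 and 12.1 TPM, and the log2 ratio of Sirt2 to Sirt3 was 2.01 ± 0.268, or 4.04-fold. This ratio was 2.32 in the read-based tables and 1.69 in CPM without length scaling. Sirt1, a nuclear deacetylase of histones and transcription factors, averaged 13.3 ± 0.624 TPM. The mitochondrial sirtuins outside the set, Sirt4 and Sirt5, averaged 15.1 and 6.83 TPM.

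The readers included the second most abundant member. Brd2, a BET protein that recruits the transcription machinery to acetylated chromatin, read 183, 180.0 and 145 TPM. Brd3, of the same family, read 9.36, 13.2 and 13.2 TPM, and the ratio of Brd2 to Brd3 was 3.83 ± 0.422 on the log2 scale, or 14.2-fold, the largest of the 12 pairs. It was 3.16 in the read-based tables, or 8.94-fold, and 2.64 in CPM without length scaling. Brd8, a subunit of the TIP60 complex, varied little with 59.2, 60.6 and 57.7 TPM. Brd7, a subunit of the PBAF remodeller, read 54.6, 61.5 and 42.5 TPM, and Brd9, of the non-canonical BAF remodeller, averaged 30.9 ± 2.30 TPM. The log2 ratio of Brd7 to Brd9 was 0.76 ± 0.181, with Brd7 higher in every library. It was 1.31 in the read-based tables and 0.61 in CPM without length scaling. Brd1, a scaffold of MYST acetyltransferase complexes, averaged 41.7 ± 3.24 TPM.

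Of the scaffolds, Ncor1 was the most abundant member of the whole set. It holds HDAC3 on unliganded nuclear receptors and other factors, and it read 223, 212 and 197 TPM. Tbl1xr1, an exchange factor of the same complex, read 19.8, 16.4 and 16.7 TPM. Sin3a and Sin3b, alternative scaffolds for HDAC1 and HDAC2, averaged 16.4 ± 0.35 and 35.1 ± 5.76 TPM. The log2 ratio of Sin3a to Sin3b was −1.08 ± 0.231, so Sin3b was 2.12-fold higher in the gene tables, against 1.31-fold in the read-based tables. In CPM without length scaling the log2 ratio was −0.02.

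**Figure D2:**
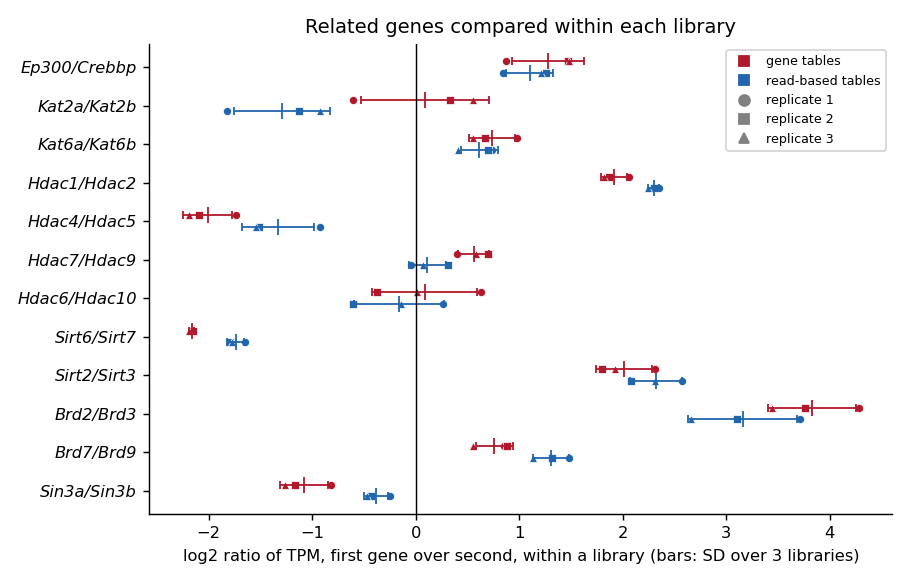
Log2 ratio of TPM for 12 pairs of related genes, taken within each library (symbols), from gene tables (red) and from read-based tables (blue), with mean and SD. Brd2/Brd3 lies farthest from 0, and Kat2a/Kat2b and Hdac6/Hdac10 are the ratios whose sign differs between libraries in the gene tables.

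Over the 12 pairs, the first gene was higher in 3 of 3 libraries for 7, the second was higher in 3 of 3 for 3, and the direction was mixed for 2. An exact two-sided sign-flip test on 3 libraries cannot give a p below 0.25, which 10 pairs reached, with a Benjamini-Hochberg value of 0.30 over the 12, so no pair could pass a threshold of 0.05. In the order of all 36 levels, neighbours counted as apart where the sign of their log2 difference was the same in 3 libraries and its mean exceeded its SD. By this rule 7 of 35 neighbouring pairs were apart and 28 were not. The steps from Ncor1 to Brd2, Sirt7, Ep300 and Brd8 were apart, as were those from Brd9 to Kat6a and from Hdac7 to Hdac9 and Hdac11. Of these 7 steps, 4 kept their direction in 3 of 3 libraries of the read-based tables. Ep300 was instead above Sirt7, and Kat6a above Brd9, in every library, and Hdac7 against Hdac9 was mixed.

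Scatter between the libraries beyond the trend for a gene's abundance was tested with edgeR's goodness-of-fit to an intercept-only model over 14789 genes. Of these, 166 were called at an adjusted p below 0.05 (1.12%). The trend was estimated from the same libraries, so scatter that most genes share was not called. None of the 36 members was called and 1 had an unadjusted p below 0.05, against 6.08% of all genes tested, and DESeq2's dispersion outliers, 61 genes, held 0 members. The member with the unadjusted p was Hdac5, at 0.0319 by edgeR and 0.686 after adjustment. Log2 CPM here used library totals rescaled by TMM factors, which adjust for library composition. The factors were 1.062, 0.9867 and 0.954 in replicates 1, 2 and 3. The median SD of log2 CPM was 0.131 for members, against 0.176 for 11240 protein-coding genes fitted. These sets were not matched for level, and the median level of members was above that of detected protein-coding genes. In log2 CPM the tightest members were Ep300, with an SD of 0.0093, Hdac3 with 0.0098, Sin3a with 0.0287 and Hdac9 with 0.0318. In TPM of the gene tables the tightest were Sin3a, with an SD of 2.14% of its mean, Brd8 with 2.49% and Hdac3 with 2.98%. Ep300 had 9.94% and Hdac9 10.4% there.

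In TMM-scaled log2 CPM, the differences that did occur were mostly between replicate 1 and the other libraries. On this scale 21 members (58.3%) were lowest in replicate 1, against 44.3% of protein-coding genes. The TMM factor was largest for replicate 1, which lowers its values relative to unscaled CPM. The same count was not made without TMM scaling. On the log2 CPM scale, Hdac5, Hdac11, Hdac10 and Sirt3 were lower in replicate 1 than in the mean of replicates 2 and 3, at −0.73, −0.72, −0.68 and −0.66. Hat1 and Kat2b were higher there, at 0.41 and 0.39. Across members, this difference had a Spearman rho of −0.709 with the GC content of the longest coding transcript (n = 36), against −0.395 for 11208 protein-coding genes. Its rho with gene span was 0.383 for members and 0.141 for protein-coding genes. These are correlations across genes of the same libraries, which are not independent replicates, and GC content and span go together in many genes. Replicate 1 had the largest labelled RNA input, the fewest counts and 1.39% of its expected counts on tRNA, spike-in and phiX entries, against 0.288% and 0.283% in replicates 2 and 3. Kdr, an endothelial marker called variable by edgeR, was highest in replicate 1, at 10.3 TPM there and 2.79 and 4.04 TPM in replicates 2 and 3. The other markers of its list were not detected, with Cdh5 at 0.14, 0.08 and 0.08 TPM and Epcam and Krt8 at 0 in every library. The part of these features in the differences was not tested, and input cannot be told apart from library because each amount has 1 library.

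**Figure D3:**
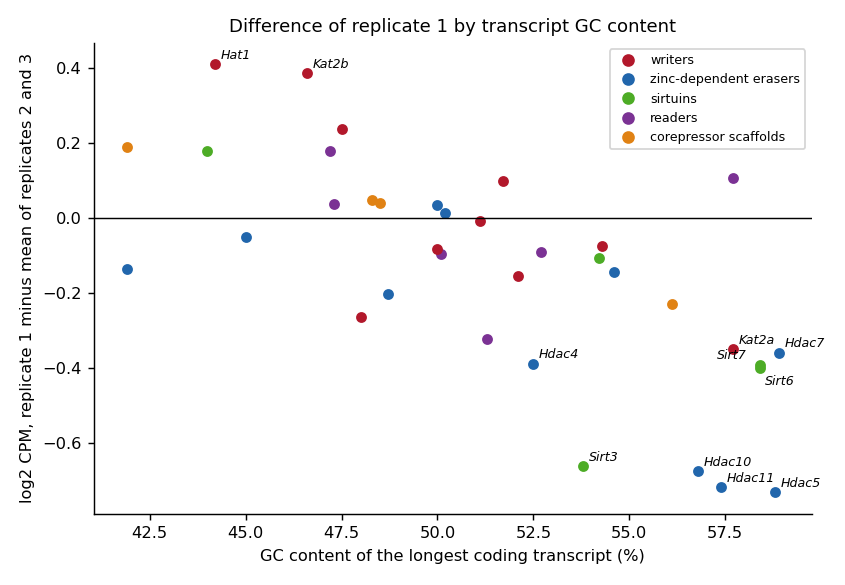
Difference of replicate 1 from the mean of replicates 2 and 3 (TMM-scaled log2 CPM) against GC content of the longest coding transcript, 1 point a gene, coloured by role. Hat1 and Kat2b, at low GC content, lie above 0, and Hdac5, Hdac11 and Hdac10, at high GC content, lie lowest.

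Transcripts annotated with a retained intron carried much of the signal of many members. Reads of a precursor that is not yet spliced also fall in such introns, so the share below is an assignment by the authors' quantifier. Of the 36 members, 30 had an annotated transcript of this class. Their median share of the gene's TPM was 43.0% ± 0.128, against 45.6% ± 0.711 for 6342 detected protein-coding genes with such a transcript (SD over 3 libraries). The share was above 50% in 13 of 30 members, against 42.2% of those protein-coding genes, so members were near the background. Kat6a, Kat7, Kat2a, Hat1, Brd3 and Tbl1xr1 had no such transcript annotated.

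The highest shares were those of Hdac7, with 74.8%, 84.6% and 76.4%, and Sirt7, with 84.9%, 73.9% and 76.2%. Kat8 averaged 70.5% ± 7.52, Kat6b 70.0% ± 0.294 and Hdac5 69.2% ± 1.65. Thus the wide spread of the Hdac5 level between libraries was not accompanied by a wide spread of its share. Hdac11 averaged 67.2% ± 9.39, Brd2 66.9% ± 1.64, Hdac1 64.8% ± 2.31, Sirt3 63.0% ± 6.28, Brd8 62.8% ± 1.45 and Brd9 60.7% ± 8.51. Hdac3 averaged 53.5% ± 2.92 and Ep300 50.3% ± 6.07. At the other end were Sin3b with 2.04% ± 1.76, Hdac8 with 8.82% ± 2.80 and Kat2b with 26.8%, 4.86% and 0%. The Kat2b value came almost wholly from replicate 1. Related genes could differ widely, as in Ep300 at 50.3% against Crebbp at 15.9% ± 1.36, and in Hdac7 against Hdac9 at 16.1% ± 2.77.

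**Figure D4:**
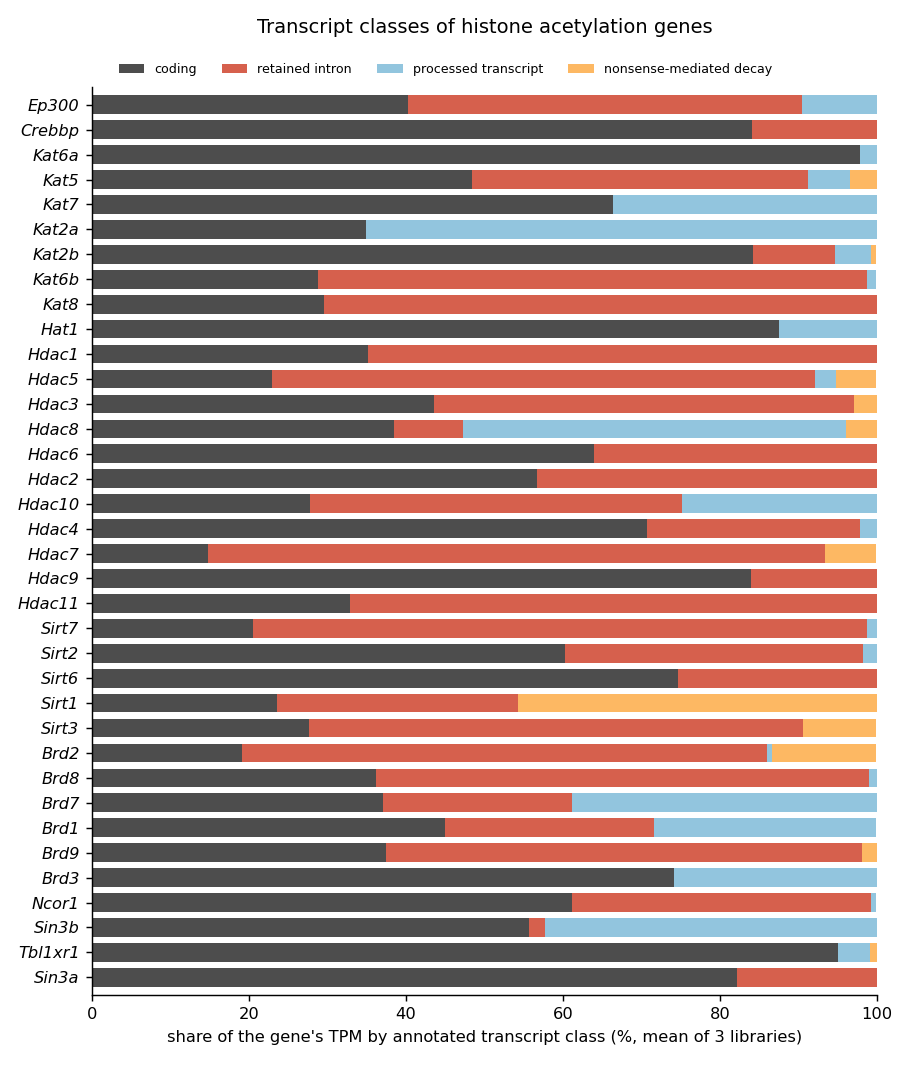
Share of each gene's TPM carried by annotated transcript classes, as the mean of 3 libraries in percent, genes ordered by role and level. Retained-intron transcripts fill most of the bar for Hdac7 and Sirt7, and coding transcripts fill most of it for Kat6a and Tbl1xr1.

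The shares depended on the measure. For Brd2, 66.9% of TPM but 27.0% of expected counts were on retained-intron transcripts, and for Ncor1 the values were 38.0% and 9.58%. The read-based tables gave Sirt1 a share of 69.2%, against 30.7% ± 3.97 in the other transcript tables. They gave Kat2b 39.5% and Sin3b 12.0%, and Hdac8 at 7.61% was then the lowest. Expected counts gave Kat2b 0.75% and Sin3b 0.471%. The most abundant transcript was coding for 22 members, of the retained-intron class for 12, a processed transcript for Kat2a and a nonsense-mediated decay transcript for Sirt1. That Sirt1 transcript, Sirt1-205, held 45.8% of the gene's TPM, and 14.7% in the read-based tables, where another transcript led. Processed transcripts held 65.1% of Kat2a, 48.9% of Hdac8 and 42.3% of Sin3b. The same transcript led in both kinds of table for 19 of 36 members.

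Levels also moved with the table used. The ratio of read-based to gene-table TPM had a median of 1.33 for members, against 1.30 for detected protein-coding genes. It was 2 or more for 4 members, against 16.7% of detected protein-coding genes, and 29 members lay above 1 and 7 below. The largest ratio was 3.56, for Tbl1xr1, at 62.7 TPM in the read-based tables against 17.6 TPM in the gene tables. Hdac4 followed at 2.31, Sirt1 at 2.20 and Kat2b at 2.16, and the lowest ratios were those of Sirt7 at 0.786, Kat2a at 0.818 and Hdac6 at 0.853. Across members the ratio had a Spearman rho of 0.584 with gene span, against 0.188 for protein-coding genes.

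**Figure D5:**
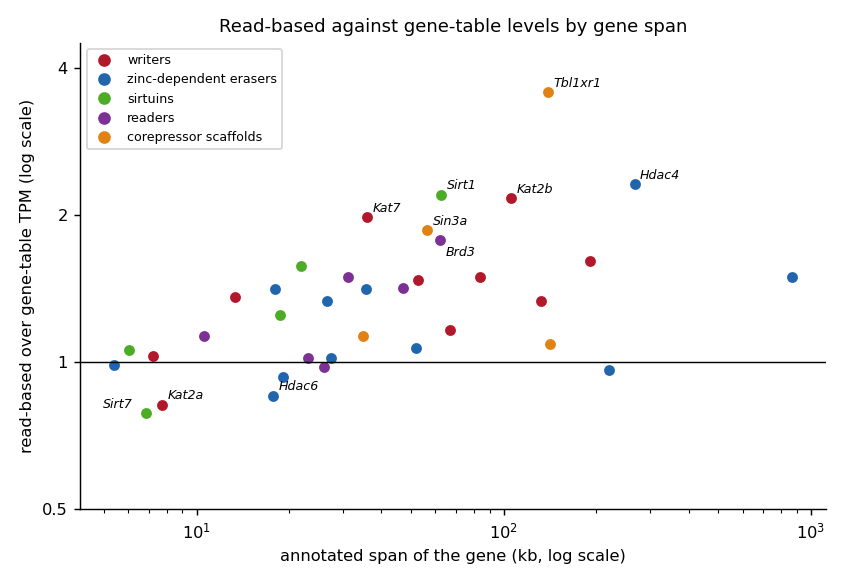
Ratio of read-based to gene-table TPM (log scale) against the annotated span of the gene (kb, log scale), 1 point a gene, coloured by role. Tbl1xr1 at 3.56 lies highest, and Sirt7 at 0.786 lies lowest among the short genes.

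Another annotated gene overlapped 23 members, and for 17 of them it lay on the opposite strand. Strand treatment is not given in the sources used here, so reads of these genes may be mixed and their values are uncertain. Sirt3 overlapped Ric8a at 38.4 TPM and Psmd13 at 29.8 TPM, both above its own 10.8 TPM. Tbl1xr1 overlapped the processed pseudogene Gm5842 at 23.0 TPM, above its own 17.6 TPM. Hdac7 overlapped Slc48a1 at 16.0 TPM, Brd2 overlapped H2-DMa at 19.0 TPM, and Sirt7 overlapped Mafg, on its own strand, at 56.9 TPM. Ncor1 overlapped Gm12276 at 18.1 TPM and Ttc19 at 12.4 TPM, far below its own 211 TPM. On build mm10, with GENCODE M21 annotation, Ncor1 spans chr11:62316426-62458541 on the minus strand, Brd2 chr17:34112023-34122634 on the minus strand, and Hdac5 chr11:102194432-102230166 on the minus strand.

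The partners of these enzymes were also present. Of 111 further genes in 8 lists, 108 were detected, and of the 110 fitted 0 were called variable by edgeR and 1 had an unadjusted p below 0.05, against 6.08% of all genes tested. Among other bromodomain genes 19 of 21 were detected, led by Phip at 190.0, Zmynd8 at 162 and Baz2b at 128 TPM, and Brdt and Cecr2 were not. Of NuRD and CoREST genes 17 of 18 were detected, led by Hmg20b at 101, Chd4 at 84.1 and Phf21a at 73.6 TPM, and Rcor2 was not. All 15 SIN3 and NCoR subunits were detected, with Arid4a at 83.0 and Phf12 at 68.1 TPM among the highest. The subunits of writer complexes were all detected, 21 of 21 for TIP60, HBO1 and MOZ, 18 of 18 for SAGA and ATAC, and 9 of 9 for MSL and NSL. The leading genes were Morf4l1 at 97.5, Trrap at 94.3 and Morf4l2 at 67.9 TPM in the first, Supt20 at 107, Zzz3 at 36.3 and Atxn7 at 32.5 TPM in the second, and Phf20 at 157, Kansl3 at 46.5 and Msl1 at 34.4 TPM in the third. The 7 genes of acetyl-CoA supply were detected at lower levels, led by Pdhb at 32.7, Acly at 32.0 and Pdha1 at 14.0 TPM.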

How the data were processed

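Chromatin RNA had been sequenced in 3 libraries of 1 condition. The authors deposited gene and transcript tables of expected counts and TPM on mm10 with GENCODE M21, per the file headers and accompanying notes. A further set of transcript tables, called read-based here, holds estimated counts and TPM that the authors made from the reads, per the same notes. Aligner, quantifiers, versions and strand treatment are not stated in any source used here. TPM has a fixed sum, so abundant short RNAs lower every other gene.

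Members and lists were chosen with earlier results of these data known. Symbols came from GENCODE M21. All 36 members are named, and from other lists the 3 of highest mean TPM and up to 3 undetected genes, some of which are not reported here. Entries for tRNA, spike-ins and phiX (1.39%, 0.288% and 0.283% of expected counts in replicates 1, 2 and 3) stayed out of library sizes and tests. List levels are medians of log2(TPM + 0.1). Pair ratios used the same pseudocount within libraries, with exact two-sided sign-flip tests. Expected counts were rounded and fitted in edgeR 4.0.16 (R 4.3.3) after filterByExpr and TMM scaling, with an intercept-only model. The dispersion was a trend over abundance, estimated from these same 3 libraries. Deviances gave chi-square p-values, which were then adjusted after Benjamini and Hochberg over all genes fitted. This step was also run on counts drawn from the fitted model with known changes, which cannot show how well the model holds for these libraries. A p-value here reflects only how far a gene scatters beyond that trend in these 3 libraries. The libraries share a donor entry, so this scatter may be technical. Log2 CPM used library totals rescaled by TMM and a prior count of 2. Other software was scipy 1.17.1, pandas 2.3.3, numpy 2.4.6, Python 3.11.15 and DESeq2 1.42.0.

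Alternatives covered other thresholds and pseudocounts, the read-based tables, rescaled TPM, CPM without length scaling, DESeq2, no filter, and leaving out each replicate. For promoters, the first rule took the entry nearest the most abundant coding transcript. It was replaced after its motif counts had been seen, because it gave starts 20026 and 388206 bases inside Ncor1 and Hdac9, against 1209 and 0 bases with the rule used, and both counts are given for the GC box and the ETS core.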

Additional observations from a re-analysis of the deposited data

How the results depend on the processing

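No paired analysis was possible because all libraries belong to 1 group. The number of detected members was 35 to 36 when each replicate was left out. It was 36 in the read-based tables and in TPM rescaled to protein-coding genes. Under every alternative run, 0 members were called variable. The number of genes called variable, 166, was 273 with read-based estimated counts, 61 as DESeq2 dispersion outliers and 56 to 76 when each replicate was left out, where fewer libraries entered the fit. Role medians on the log2 scale shifted with the unit. In the read-based tables they were 4.998 for writers, 4.875 for sirtuins, 5.86 for readers and 5.64 for scaffolds. In TPM rescaled to protein-coding genes, which raises every value by construction, they were 6.22 for writers, 5.16 for zinc-dependent erasers, 6.37 for sirtuins, 7.31 for readers and 6.40 for scaffolds. In CPM without length scaling they were 5.73 for writers, 4.30 for zinc-dependent erasers, 4.90 for sirtuins, 6.69 for readers and 6.19 for scaffolds. The mean over the 4 scaffolds was 5.26. The median retained-intron share was 49.6% in the read-based tables and 29.1% of expected counts. The Kat2a to Kat2b log2 ratio changed sign to −1.29 in the read-based tables, −0.20 in CPM, −0.03 without replicate 2 and −0.14 without replicate 3, and was 0.44 without replicate 1. The Hdac6 to Hdac10 ratio changed sign to −0.16 in the read-based tables and −0.18 without replicate 1, and was 0.32 without replicate 2. The cause was not tested. The choice of promoter entry, added after seeing the data, gave the ETS core in 10 member promoters with the entry nearest the gene's 5′ end and 5 with the other rule, and the GC box in 21 and 25. Depth limited Hdac11, with 8 to 21 counts a library, and limits at low counts cover counting error only.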
